A study of Mus musculus with 10 samples.

Results

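The nuclear receptor superfamily in sorted hematopoietic stem cells (HSCs) is described here, with the vitamin D receptor gene *Vdr* among its members. Members were chosen by gene symbol, and 47 receptor genes of the 26146 genes in the count table matched. HSCs, defined by the surface phenotype LSKCD48-CD150+, came from 5 *Cited2* CTL and 5 *Cited2* CKO young adult C57BL/6J mice. Each mouse gave 1 library. Both genotypes carried floxed *Cited2* alleles (*Cited2* fl/fl). *Cited2* CTL mice had no Cre, whereas *Cited2* CKO mice also carried *Vav-iCre*, whose promoter drives recombination throughout the hematopoietic system rather than in HSCs alone. RNA of the sorted cells was sequenced in bulk, so fewer cells of a type and less RNA per cell cannot be told apart.

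Nuclear receptors are transcription factors that bind DNA through zinc fingers, and many of them are switched by small lipophilic ligands such as vitamin D, retinoic acid, thyroid hormone, fatty acids, oxysterols and steroids. Several, VDR among them, bind DNA as heterodimers with a retinoid X receptor (RXR), recruit corepressors of the NCoR family without ligand and coactivators of the NCOA family with it. Orphan members such as the NR4A receptors act without a known classical ligand. CITED2 is a transcriptional coregulator that binds the histone acetyltransferases CBP and p300, which nuclear receptors also use as coactivators. The comparison asks how receptor expression differs in HSCs of *Cited2* CKO mice.

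Promoters of the 2 members whose levels did not overlap between the genotypes are shown because the text below turns on these genes. The sequences are those of RefSeq (GRCm38.p6) and run 5′ to 3′ on the gene's strand, from 250 bases before to 50 bases after an annotated start. Capitals mark matches to GGGCGG, the GC box bound by SP factors, and to CAGGTG, an E-box form bound by E proteins. The *Vdr* window lies at chr15:97908247-97908546 on the minus strand. The *Hnf4a* windows lie at chr2:163506607-163506906 and chr2:163546905-163547204 on the plus strand, at 2 of its annotated starts.
Vdr: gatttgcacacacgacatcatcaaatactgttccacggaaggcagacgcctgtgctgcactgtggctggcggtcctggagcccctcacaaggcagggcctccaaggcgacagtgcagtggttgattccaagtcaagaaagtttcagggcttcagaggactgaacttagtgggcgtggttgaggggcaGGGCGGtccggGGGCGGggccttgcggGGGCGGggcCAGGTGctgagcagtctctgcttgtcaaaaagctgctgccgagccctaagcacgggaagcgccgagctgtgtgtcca
Hnf4a, upstream start: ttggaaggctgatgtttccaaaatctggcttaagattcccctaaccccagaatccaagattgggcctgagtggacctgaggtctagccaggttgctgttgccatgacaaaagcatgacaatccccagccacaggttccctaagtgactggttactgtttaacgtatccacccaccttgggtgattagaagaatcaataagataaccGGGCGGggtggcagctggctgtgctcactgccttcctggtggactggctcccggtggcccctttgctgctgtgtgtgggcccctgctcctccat
Hnf4a, downstream start: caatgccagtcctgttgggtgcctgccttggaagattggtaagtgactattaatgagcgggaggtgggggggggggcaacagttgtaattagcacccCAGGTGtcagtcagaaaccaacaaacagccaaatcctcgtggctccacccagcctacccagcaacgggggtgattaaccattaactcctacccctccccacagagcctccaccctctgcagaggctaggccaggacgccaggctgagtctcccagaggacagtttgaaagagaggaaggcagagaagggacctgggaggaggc

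The *Vdr* window held 3 GC boxes, at -63, -52 and -36 from the start, and the E-box at -27, with no overlap between them. At least 3 GC boxes were present in 10.7% of all 32851 promoter windows and in 13 of the 64 windows of member genes, and 1.96% of all windows held the E-box as well. The upstream *Hnf4a* window held 1 GC box at -44, and the downstream window held 1 E-box at -153. Searched on both strands, GGGCGG was present in 35.7% of all windows and 43.8% of the member windows, and CAGGTG in 20.2% and 21.9%. AGGTCA, the core hexamer that many nuclear receptors bind, was present in 16.3% and 18.8%, TTCNNNGAA, the core of STAT sites, in 8.3% and 9.38%, and AGGCCT, a core of ZFX sites, in 10.3% and 7.81%. None of the last 3 matched in the windows printed above. Windows were found for 43 of the 47 members, all but *Hnf4g*, *Nr5a1*, *Nr3c1* and *Thra*, and the median GC content was 58.5% in the member windows and 52.7% in all.

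The libraries were examined before the receptors. Totals of the deposited counts ran from 3058690 to 4548795 in the *Cited2* CTL group and from 3500215 to 4315029 in the *Cited2* CKO group. *Cited2* was at 101 to 222 CPM (counts relative to the normalized size of each library) in *Cited2* CTL libraries and at 3.80 to 8.30 CPM in 4 *Cited2* CKO libraries. The library labelled CKO 3 stood apart at 120.1 CPM, within the *Cited2* CTL range. Several of the results that it moves, though not all, are given with and without it. With all libraries *Cited2* itself did not reach an adjusted p under 0.05 (log2 fold change -2.51, adjusted p = 0.328, edgeR). Without the library labelled CKO 3 its log2 fold change was -4.92 (adjusted p = 1.8e-06, edgeR). Of the 14165 tested genes, 17 were called higher (0.12%) and 15 lower (0.106%) in *Cited2* CKO HSCs at an adjusted p under 0.05 and a fold change above 20% (edgeR quasi-likelihood test, Benjamini-Hochberg over all tested genes). All 12 HSC markers examined passed the filter and none was called, with summed levels of 2381 to 2671 CPM in the *Cited2* CTL and 2118 to 2439 CPM in the *Cited2* CKO libraries (from 2325 CPM without the library labelled CKO 3). At an unadjusted p under 0.05 (edgeR), 2 of the 12 were higher and 2 lower, beside 5.8% and 7.08% of all tested genes. The levels of 1 of them did not overlap between the genotypes, beside 3.33% of all tested genes. Their median log2 fold change was -0.14. Among 6 multipotent progenitor markers *Cd48*, whose absence defines the sort gate, rose from 21.6 ± 5.53 to 49.0 ± 9.16 CPM (SD, n = 5 each; adjusted p = 0.0264, edgeR). The call was lost in 6 of 10 fits that left out 1 library (without CTL 1, CTL 2, CTL 4, CKO 1, CKO 2 or CKO 5, adjusted p from 0.0626 to 0.105) and after correction for GC content and length of genes (adjusted p = 0.175). The summed level of the 6 markers ran from 521 to 614 CPM in the *Cited2* CTL and from 531 to 620 CPM in the *Cited2* CKO libraries. The median log2 fold change of the 6 was 0.51, with *Cd48* and *Satb1* higher and *Flt3* lower at an unadjusted p under 0.05. Summed markers of other lineages overlapped between the genotypes and gave no call. In the *Cited2* CTL and *Cited2* CKO libraries they ran from 858 to 1027 and from 803 to 1118 CPM for 9 megakaryocyte markers, from 135 to 234 and from 173 to 199.6 CPM for 8 erythroid markers, and from 428 to 826 and from 437 to 644 CPM for 11 myeloid markers. The ranges were 115 to 165 and 144.5 to 194 CPM for 12 lymphocyte markers and 133 to 152 and 134 to 181 CPM for 8 stromal and endothelial markers. Without the library labelled CKO 3 the lowest *Cited2* CKO sums were 573 CPM for progenitor and 462 CPM for myeloid markers, and the highest stromal sum was 179 CPM. None of these markers was at 0 in every library, and *Pax5* and *Cd3e* were among those too low to test. Their part in the results below was not tested.

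*Vdr* was the 1 receptor called by edgeR, a call that was lost under several alternatives given below, and *Hnf4a* was called by DESeq2 but not by edgeR. Of the 47 members, 32 passed the filter on low counts, *Vdr* fell and no member was called higher (edgeR). Called genes made up 0.106% (lower) and 0.12% (higher) of all tested genes. At an unadjusted p under 0.05, *Vdr*, *Hnf4a* and *Rora* were lower and no receptor was higher, that is 3 of 32 (9.38%) beside 12.9% of all tested genes (7.08% lower and 5.8% higher). The CPM of the genotypes did not overlap for *Vdr* and *Hnf4a*, both lower and 2 of 32, beside 3.33% of all tested genes (1.98% lower). The median log2 fold change (*Cited2* CKO over *Cited2* CTL) was -0.03 over the 32 receptors and 0.01 over all tested genes, and 17 receptors were lower and 15 higher in value.

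*Vdr* encodes the nuclear receptor for the active form of vitamin D and lies on chromosome 15 of GRCm38, from 97854425 to 97910630 on the minus strand. Its normalized level was 77.9, 80.1, 72.0, 80.2 and 79.6 CPM in CTL 1 to CTL 5 and 53.0, 49.5, 46.6, 44.4 and 31.3 CPM in CKO 1 to CKO 5. Every *Cited2* CKO library lay below the lowest *Cited2* CTL library, and the library labelled CKO 3 lay in the middle of its group. These levels rest on 233 to 364 counts per *Cited2* CTL library and 136 to 223 per *Cited2* CKO library. The *Cited2* CKO mean of 45.0 ± 8.27 CPM was 57.7% of the *Cited2* CTL mean of 78.0 ± 3.45 CPM (SD, n = 5 each). The log2 fold change was -0.79 with a standard error of 0.13 (adjusted p = 0.0264, edgeR), and a two-sided exact permutation test of the mean CPM gave p = 0.00794, the smallest p that 5 libraries against 5 allow. Without the library labelled CKO 3 the log2 fold change was -0.81 (adjusted p = 0.0291), and the *Cited2* CKO mean was 44.55 ± 9.49 CPM.

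The call of *Vdr* lay close to the threshold. It was kept in 4 of the 10 fits that left out 1 library, those without CKO 1, CKO 3, CKO 4 or CKO 5 (adjusted p from 0.0216 to 0.0479), and lost in 6, those without CKO 2 or any of the *Cited2* CTL libraries (0.0528 to 0.103). Correcting each library for the GC content and length of genes gave a log2 fold change of -0.73 (adjusted p = 0.0634), in a fit that called 0.0212% of all genes lower and no receptor. Without the library labelled CKO 3, *Vdr* was again the 1 receptor called, beside 0.104% of all genes lower and 0.188% higher. *Vdr* ranked 19 of 14165 by p, and its GC content was 52.4%, beside medians of 48.8% for all tested genes, 56.4% for genes called lower and 43.1% for genes called higher.

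**Figure D1:**
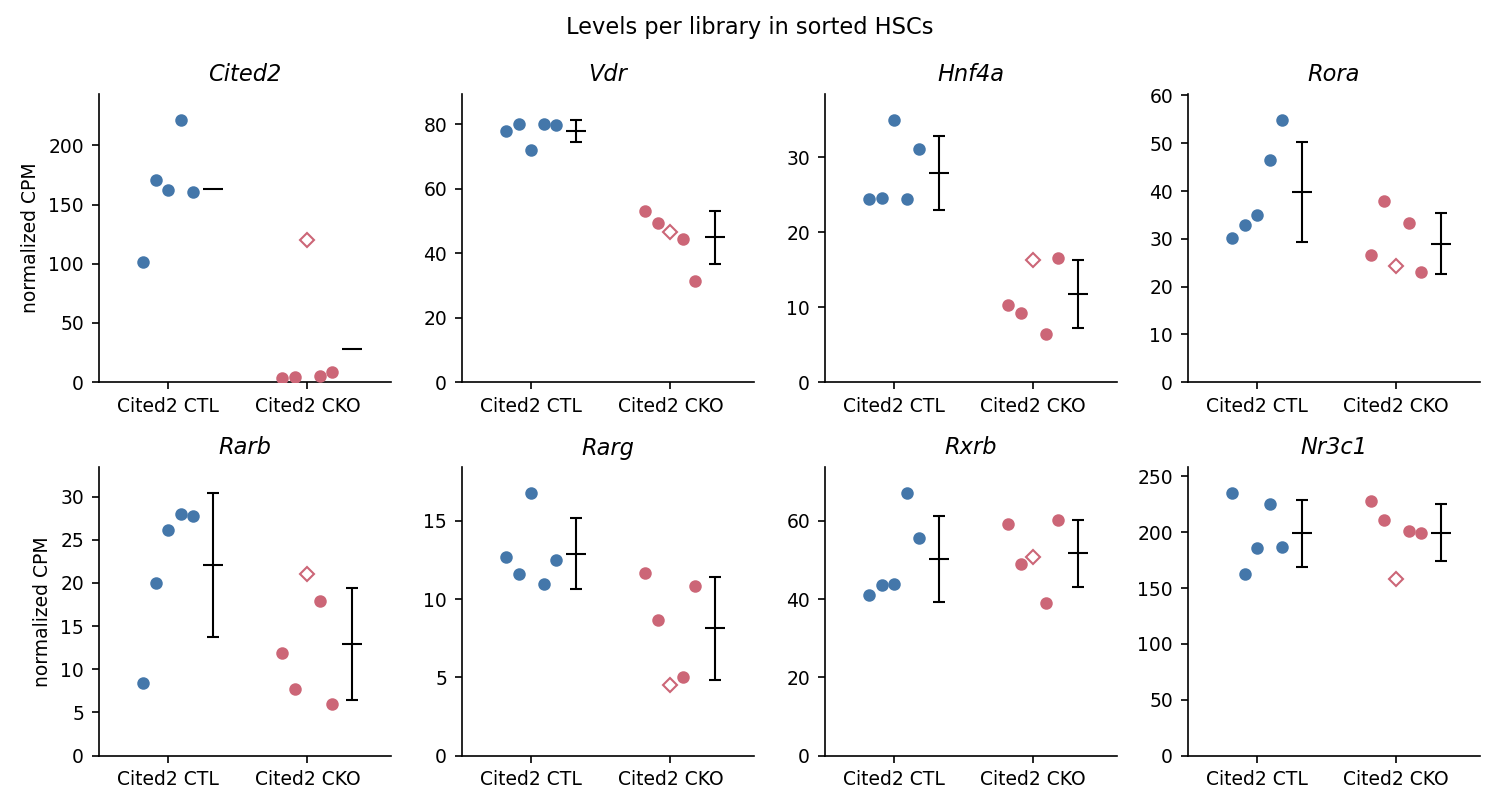
Normalized CPM (vertical axes, each from 0) of *Cited2* and 7 receptors in 5 *Cited2* CTL (blue) and 5 *Cited2* CKO (red) libraries; the open diamond is the library labelled CKO 3, and black marks are the mean with SD (mean alone for *Cited2*). All *Cited2* CKO libraries lie below all *Cited2* CTL libraries for *Vdr* and *Hnf4a*, while the genotypes overlap for the other receptors.

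*Hnf4a* encodes an orphan receptor best known as a regulator of liver and gut genes. It was at 24.4, 24.5, 34.98, 24.4 and 31.1 CPM in CTL 1 to CTL 5 and at 10.2, 9.15, 16.3, 6.47 and 16.6 CPM in CKO 1 to CKO 5. The genotypes did not overlap, and the library labelled CKO 3 was among the higher libraries of its group. The *Cited2* CKO mean of 11.75 ± 4.51 CPM was 42.2% of the *Cited2* CTL mean of 27.9 ± 4.91 CPM (SD, n = 5 each), and the values rest on 22 to 142 counts per library. The log2 fold change of -1.24 (standard error 0.26) was larger in size than that of *Vdr* but did not pass the threshold (adjusted p = 0.0753, edgeR), and the two-sided exact permutation test again gave p = 0.00794. The Wald test in DESeq2 called *Hnf4a* (adjusted p = 0.00185), a test that called 1.44% of all genes lower and 1.1% higher, with *Vdr* and *Hnf4a* the only receptors among them. Without the library labelled CKO 3 the edgeR adjusted p was 0.0522 (log2 fold change -1.38). Its paralog *Hnf4g* did not pass the filter.

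*Rora* encodes an orphan receptor that activates clock genes through the elements that REV-ERB receptors repress. It was at 30.1, 32.8, 34.98, 46.55 and 54.9 CPM in CTL 1 to CTL 5 and at 26.6, 37.85, 24.35, 33.2 and 23.0 CPM in CKO 1 to CKO 5. The genotypes overlapped, and the log2 fold change of -0.47 (standard error 0.20) gave an unadjusted p of 0.0373 in edgeR, an adjusted p of 0.360, and a two-sided exact permutation p of 0.0794. Exons of *Rora* overlap *Gm15511* on the opposite strand, and whether counting used strand is not given in the sources used here. *Nr1d2*, which encodes REV-ERB beta, was at 97.7 to 111 CPM in the *Cited2* CTL and 80.6 to 145 CPM in the *Cited2* CKO libraries. The overlap came from CKO 3 alone (80.6 CPM), since CKO 1, CKO 2, CKO 4 and CKO 5 (118 to 145 CPM) exceeded every *Cited2* CTL library. In edgeR the log2 fold change of *Nr1d2* was 0.175 (adjusted p = 0.61) with CKO 3 and 0.29 (adjusted p = 0.226) without it.

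Receptors of retinoids and thyroid hormone share RXR as a partner with VDR. *Rarb*, an RAR gene that retinoic acid itself induces, was at 8.36, 19.95, 26.2, 28.0 and 27.8 CPM in CTL 1 to CTL 5 and at 11.9, 7.67, 21.0, 17.9 and 5.99 CPM in CKO 1 to CKO 5. The libraries of both genotypes were widely spread and overlapped (log2 fold change -0.78, standard error 0.38, adjusted p = 0.405, or -1.03 and 0.312 without the library labelled CKO 3), and *Rarb* exons overlap those of *Top2b* and *Gm48162* on the opposite strand. *Rarg* was at 10.97 to 16.8 CPM in the *Cited2* CTL and 4.49 to 11.65 CPM in the *Cited2* CKO libraries (log2 fold change -0.66, adjusted p = 0.420), with the library labelled CKO 3 the lowest, and the log2 fold change was -0.51 without it and -0.41 after correction for GC content and length. *Thra*, which encodes thyroid hormone receptor alpha, was at 8.70, 13.6, 10.9, 11.5 and 12.2 CPM in CTL 1 to CTL 5 and at 15.4, 13.4, 7.80, 8.82 and 10.4 CPM in CKO 1 to CKO 5. The genotypes overlapped throughout. *Thra* shares exon sequence with *Nr1d1* on the opposite strand, so reads within the shared stretch cannot be told apart without strand. *Rxrb* was the RXR gene with the highest level per kilobase, at 41.1, 43.7, 43.8, 67.0 and 55.6 CPM in CTL 1 to CTL 5 and 59.2, 49.0, 50.8, 39.1 and 60.1 CPM in CKO 1 to CKO 5. The genotypes overlapped for this partner of VDR, and its log2 fold change was 0.04 with a standard error of 0.16 (adjusted p = 0.946).

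Lipid-sensing receptors were led by *Nr1h2*, which encodes the oxysterol receptor LXR beta. It was at 81.3, 99.02, 82.3, 89.7 and 80.08 CPM in CTL 1 to CTL 5 and at 73.7, 56.4, 59.1, 90.25 and 79.96 CPM in CKO 1 to CKO 5. In value 4 of 5 *Cited2* CKO libraries lay below every *Cited2* CTL library, CKO 5 only just, and 1 lay within their range (log2 fold change -0.27, standard error 0.13, adjusted p = 0.416). After correction for GC content and length the log2 fold change of *Nr1h2* was -0.03. *Pparg*, a fatty acid receptor known from adipocytes, was at 1.00, 2.78, 2.94, 3.90 and 0.656 CPM in CTL 1 to CTL 5 and at 4.52, 5.44, 0.236, 0.588 and 0.230 CPM in CKO 1 to CKO 5. These levels rest on few counts and overlapped between the genotypes.

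Steroid and estrogen receptors were also compared. *Nr3c1*, the glucocorticoid receptor gene, was at 235, 162, 186, 225 and 187 CPM in CTL 1 to CTL 5 and at 228, 210, 158, 201 and 199 CPM in CKO 1 to CKO 5. The genotypes overlapped, and the log2 fold change was 0.00 with a standard error of 0.11. *Esr1*, which encodes estrogen receptor alpha, was at 40.5, 43.7, 46.7, 43.6 and 48.1 CPM in CTL 1 to CTL 5 and at 63.7, 71.99, 36.2, 47.04 and 64.98 CPM in CKO 1 to CKO 5. The libraries labelled CKO 1, CKO 2 and CKO 5 lay above every *Cited2* CTL library, while the library labelled CKO 3 lay below all of them (log2 fold change 0.35, standard error 0.17, adjusted p = 0.411). Without the latter the log2 fold change of *Esr1* was 0.48 (adjusted p = 0.181).

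Among orphan receptors, *Nr4a1*, an immediate early gene, was at 274, 327, 545, 230 and 454 CPM in CTL 1 to CTL 5 and at 218, 241, 327, 381 and 292 CPM in CKO 1 to CKO 5. The genotypes overlapped (log2 fold change -0.33, standard error 0.21, adjusted p = 0.553), and the *Cited2* CTL libraries alone differed by more than their group mean differed from that of *Cited2* CKO. *Nr2c2*, which encodes TR4, was at 140, 102, 103, 110 and 143 CPM in CTL 1 to CTL 5 and at 133, 155, 105, 114 and 150 CPM in CKO 1 to CKO 5. *Nr6a1*, which encodes germ cell nuclear factor, was at 2.67, 0.758, 12.6, 12.7 and 8.75 CPM in CTL 1 to CTL 5 and at 17.6, 12.4, 10.6, 23.8 and 9.45 CPM in CKO 1 to CKO 5. The genotypes overlapped (log2 fold change 0.97, standard error 0.55, adjusted p = 0.494). *Nr0b2*, which encodes the DNA-binding-deficient receptor SHP, was at 9.36, 3.79, 10.6, 9.99 and 6.13 CPM in CTL 1 to CTL 5 and at 5.47, 4.21, 15.8, 3.53 and 3.69 CPM in CKO 1 to CKO 5. Its highest library was that labelled CKO 3, and the genotypes overlapped. The log2 fold change of *Nr0b2* was -0.28 (adjusted p = 0.859) with that library and -0.91 (adjusted p = 0.473) without it, and the *Cited2* CKO mean was 6.55 and 4.22 CPM beside 7.97 CPM in *Cited2* CTL HSCs.

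The remaining receptors gave no call. Apart from *Vdr* and *Hnf4a*, log2 fold changes ran from -0.78 (*Rarb*) to 1.11 (*Nr1h5*, at 0 to 9.22 CPM), with no adjusted p under 0.360. Without the library labelled CKO 3 they ran from -1.035 (*Rarb*) to 1.06 (*Nr6a1*), and the smallest adjusted p was 0.181 (*Esr1*, edgeR). In that fit *Thra* (0.07), *Pparg* (0.24) and *Nr1h3* (0.26) turned from lower to higher in value. The 15 receptors that did not pass the filter reached at most 7.09 CPM in any library, and their counts summed over all 10 libraries lay between 6 and 112. Fitted without the filter, none of these 15 reached an unadjusted p under 0.05 in edgeR (smallest adjusted p = 0.680). No receptor was at 0 in every library. Exons of 13 members, 10 of them tested, overlap another annotated gene, and *Vdr* and *Hnf4a* are not among them. Summed over all members, the level was 1424 ± 165 CPM in the *Cited2* CTL and 1294 ± 83.5 CPM in the *Cited2* CKO libraries (SD, n = 5 each).

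**Figure D2:**
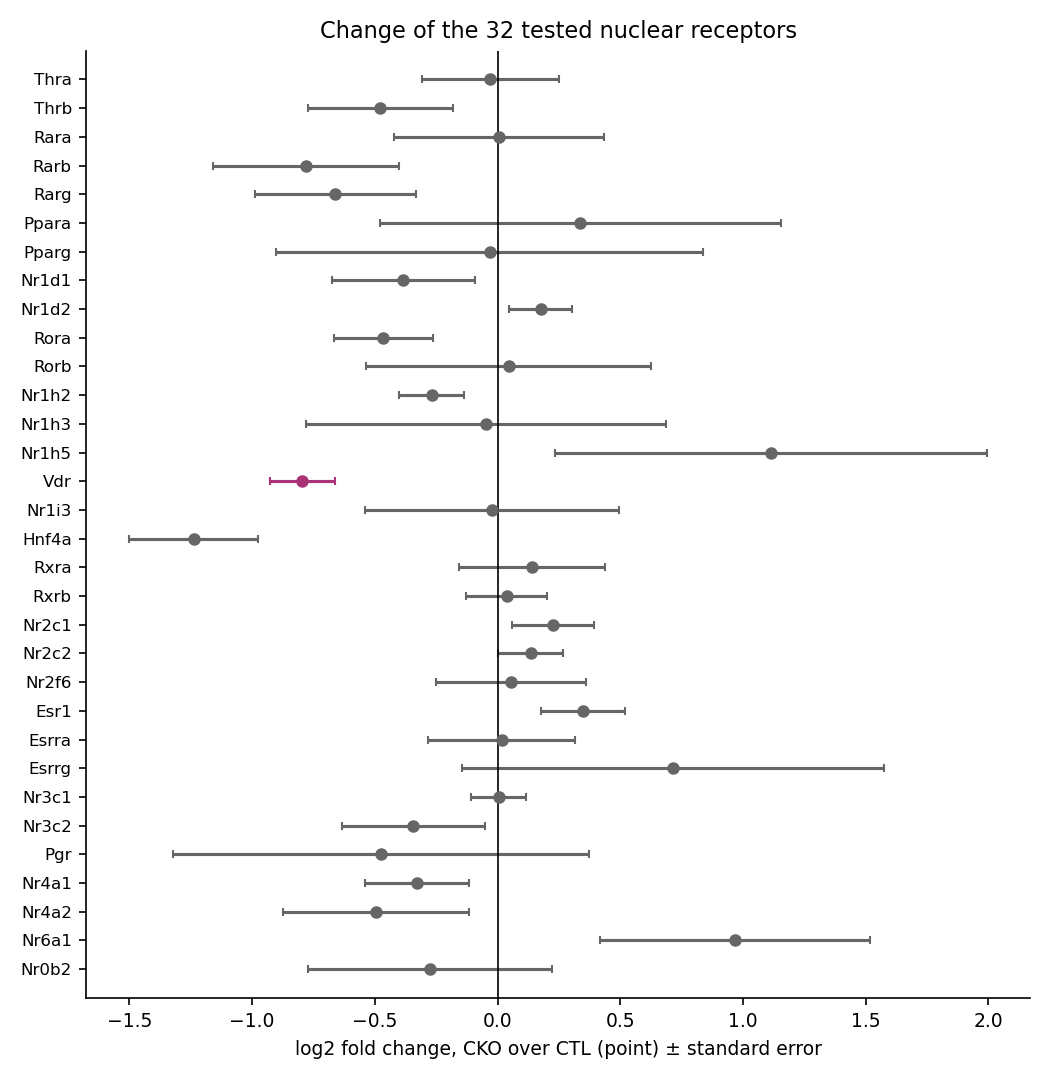
Log2 fold change, *Cited2* CKO over *Cited2* CTL (horizontal axis), with its standard error for the 32 tested receptors; magenta marks *Vdr*, the 1 called receptor. *Vdr* (-0.79) has a narrow error bar beside those of *Hnf4a* (-1.24) and of receptors with few counts such as *Nr1h5* (1.11).

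Levels of different receptors were compared per kilobase of gene length. In *Cited2* CTL HSCs *Nr4a1* was highest at 148 ± 52.7 CPM per kilobase, followed by *Nr1h2* (44.0 ± 4.05) and *Nr3c1* (31.4 ± 4.76), and the ranges of these neighbours did not overlap. From *Nr3c1* through *Rora*, *Nr1d2*, *Rxrb*, *Vdr*, *Nr2c2*, *Nr4a2*, *Nr2c1* and *Esr1*, each receptor overlapped the next. *Vdr* was 7th of 47 at 17.9 ± 0.791 CPM per kilobase in *Cited2* CTL HSCs and 11th in *Cited2* CKO HSCs at 10.3 CPM per kilobase. A total of 11 receptors had a mean of at least 10 CPM per kilobase in *Cited2* CTL HSCs.

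**Figure D3:**
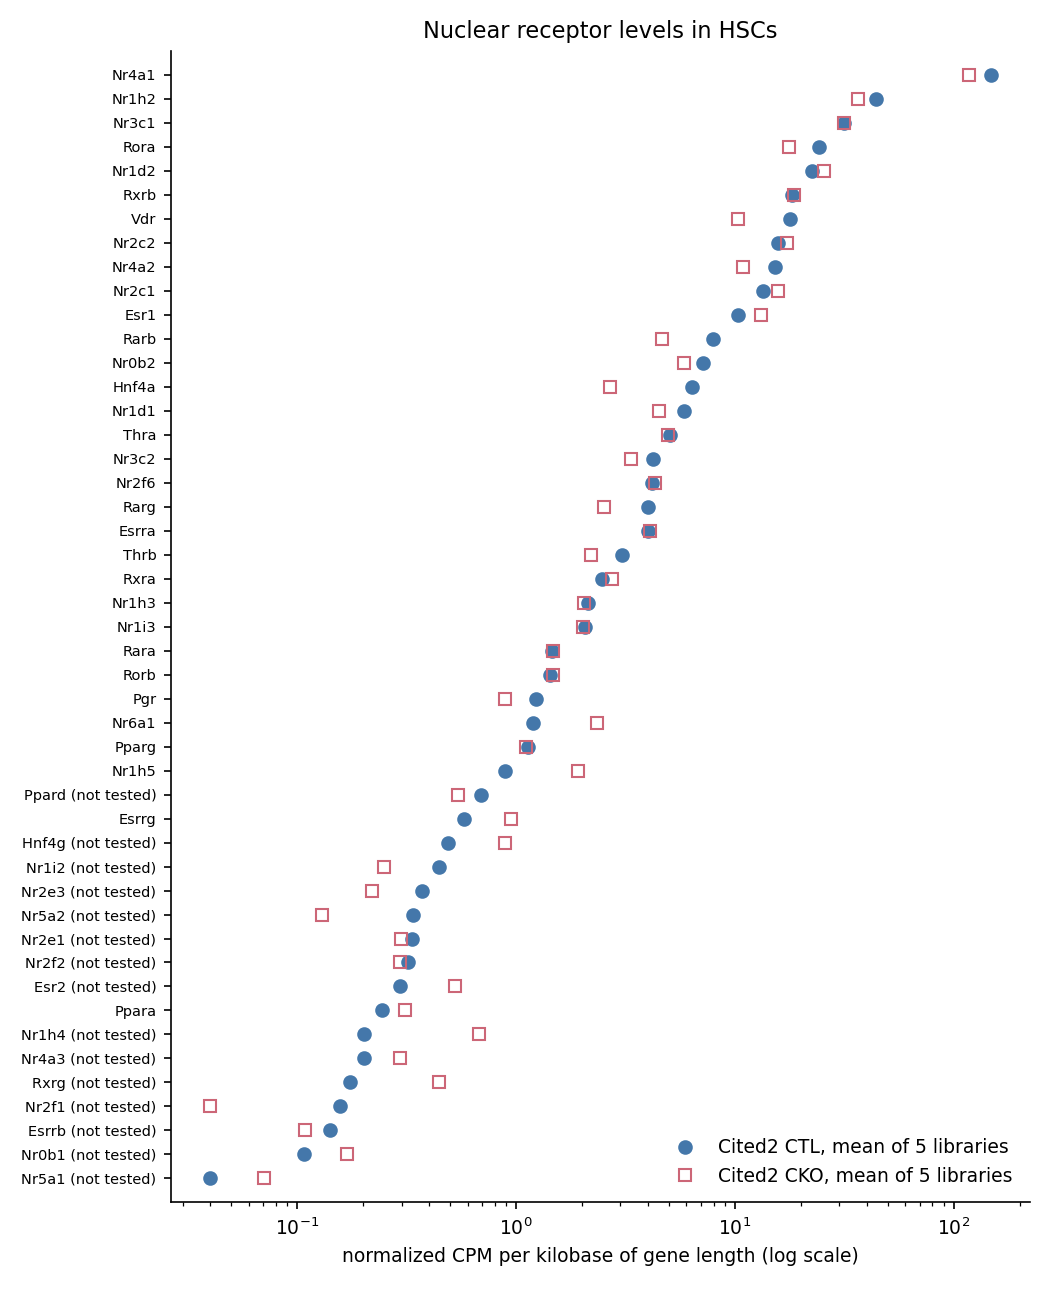
Mean level per kilobase of gene length of the 47 receptors (log axis, CPM per kilobase) in *Cited2* CTL (blue circles) and *Cited2* CKO (red squares) HSCs, with untested receptors marked. *Nr4a1* is the highest, and *Vdr* stands at 17.9 and 10.3 CPM per kilobase.

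Genes that act with the receptors were then examined in 11 lists of coregulators, chaperones, metabolic enzymes and known targets. Of 139 tested genes in these lists that are not receptors themselves, 1 was called by edgeR, beside 0.226% of all tested genes called in either direction. DESeq2 called 5 of them, 2 higher and 3 lower, beside 1.1% of all genes called higher and 1.44% called lower by that test. At an unadjusted p under 0.05, 20 genes (14.4%) differed, 13 lower and 7 higher, beside 12.9% of all tested genes. The genotypes did not overlap for 6 of the 139 genes, beside 3.33% of all tested genes. Median log2 fold changes of the lists lay between -0.13 and 0.10. Summed levels of the clock list ran from 1086 to 1152 CPM in the *Cited2* CTL and from 998 to 1030 CPM in the *Cited2* CKO libraries. Those of the retinoid list ran from 734 to 809 and from 645 to 713 CPM. Neither pair of ranges overlapped, whereas the sums of all other lists did. Such sums were not compared with those of other gene sets.

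Vitamin D metabolism and VDR targets held 22 genes, of which 12 were tested and none was called by edgeR, whereas DESeq2 called *Ninj1* lower. *Cyp24a1* and *Cyp27b1*, the enzymes that inactivate and activate vitamin D, were among the 10 genes too low to test, none above 8.53 CPM in any library. Both genes at an unadjusted p under 0.05 were lower. *Ninj1*, which encodes an adhesion protein of the plasma membrane, was at 148, 129, 134, 115.5 and 124.5 CPM in CTL 1 to CTL 5 and at 89.9, 87.6, 98.3, 95.8 and 112 CPM in CKO 1 to CKO 5. The genotypes did not overlap (log2 fold change -0.43, standard error 0.09, adjusted p = 0.0781 in edgeR and 0.00547 in DESeq2), and the log2 fold change was -0.26 after correction for GC content and length. *Fbp1*, a gluconeogenic enzyme gene, averaged 26.05 ± 3.39 and 17.7 ± 3.71 CPM (SD, n = 5 each), also without overlap (log2 fold change -0.56, adjusted p = 0.249). The other 10 tested genes did not reach an unadjusted p under 0.05, and the median of the list was -0.01 beside 0.01 over all tested genes.

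Retinoid metabolism and RAR targets held 22 genes, 11 of them tested and none called by edgeR, with 3 lower and 1 higher at an unadjusted p under 0.05. DESeq2 called 3 of them, *Dhrs3* higher and *Tgm2* and *Aldh1a1* lower, beside 1.1% of all genes called higher and 1.44% lower. *Dhrs3*, which reduces retinaldehyde and thereby limits retinoic acid synthesis, was at 41.1, 33.85, 40.9, 39.97 and 52.95 CPM in CTL 1 to CTL 5 and at 87.0, 76.2, 42.55, 84.96 and 83.2 CPM in CKO 1 to CKO 5. The 4 other *Cited2* CKO libraries lay above every *Cited2* CTL library, whereas the library labelled CKO 3, in which *Cited2* was at 120.1 CPM, lay within the *Cited2* CTL range. In edgeR the log2 fold change was 0.84 (adjusted p = 0.0835) with that library and 0.99 (adjusted p = 0.00584) without it, and DESeq2 gave an adjusted p of 0.00408 with it. *Tgm2*, the transglutaminase gene that retinoic acid induces, averaged 225 ± 27.7 CPM in the *Cited2* CTL and 171 ± 2.51 CPM in the *Cited2* CKO libraries without overlap (log2 fold change -0.40, adjusted p = 0.0715 in edgeR and 0.00252 in DESeq2). Without CTL 5 edgeR called *Tgm2* (log2 fold change -0.47, adjusted p = 0.0172), and after correction for GC content and length its log2 fold change was -0.18.

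Coactivators (14 genes, all tested) and corepressors (14 genes, all tested) gave no call, and each list had a median log2 fold change of 0.10. *Ncor1*, the scaffold of a histone deacetylase complex, averaged 255 ± 28.0 and 304 ± 17.2 CPM without overlap (log2 fold change 0.25, or 0.13 after correction for GC content and length, adjusted p = 0.210). Among coactivators *Ncoa7* had a log2 fold change of 0.28 (0.11 after that correction) and *Ncoa2* of -0.21, both at an unadjusted p under 0.05. None of 10 steroid receptor chaperone genes reached that level.

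Targets of the lipid receptors gave no call either. Of 24 tested PPAR targets 2 were at an unadjusted p under 0.05, both lower, namely *Acadvl* and *Acaa1a* of fatty acid oxidation. Their log2 fold changes were -0.30 and -0.26 (-0.17 and -0.10 after correction for GC content and length). The genotypes did not overlap for *Acaa1a* but did for *Acadvl*. Of 13 tested LXR targets 2 were at an unadjusted p under 0.05, the cholesterol exporters *Abca1* (-0.56) and *Abcg1* (-0.27). None of 16 tested glucocorticoid targets was, with the deleted gene *Cited2*, itself on that list, left out. Of 16 tested clock genes *Csnk1e*, a kinase of PER proteins, was (-0.50, or -0.30 after correction, adjusted p = 0.275), and of 6 tested thyroid hormone genes *Dio2*, which activates thyroxine, was (0.60, or 0.40 after correction).

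Estrogen receptor targets held the 1 called gene of the 11 lists. *Ccnd1*, which encodes cyclin D1 of the G1 phase and is regulated by many pathways besides estrogen, was at 75.9, 70.7, 58.8, 80.9 and 61.05 CPM in CTL 1 to CTL 5 and at 94.8, 100.2, 103.5, 140.2 and 122 CPM in CKO 1 to CKO 5. It rose from 69.5 ± 9.47 to 112 ± 18.7 CPM without overlap (SD, n = 5 each; log2 fold change 0.69, standard error 0.13, adjusted p = 0.0456, edgeR). The call was lost whenever any 1 library was left out (adjusted p from 0.0522 to 0.143). Of the 9 tested genes in the list, 5 were higher and 4 lower in value.

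**Figure D4:**
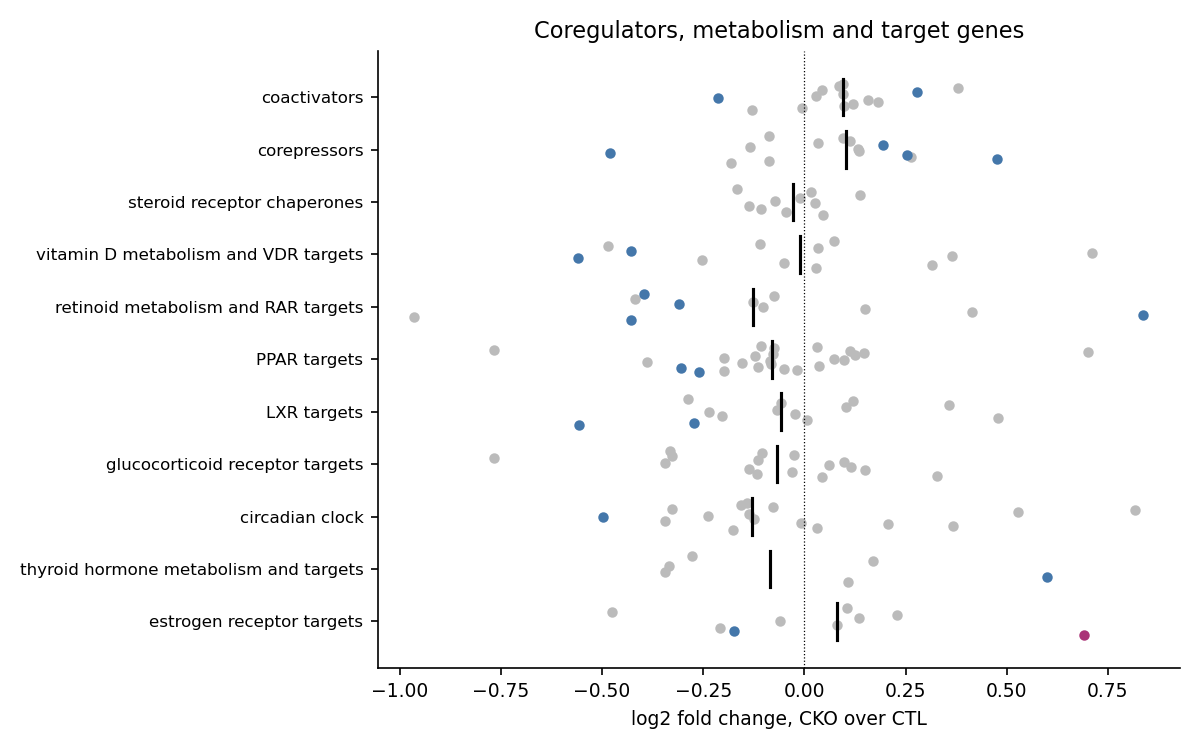
Log2 fold changes, *Cited2* CKO over *Cited2* CTL (horizontal axis), of tested genes in the lists, each point a gene; magenta points were called, blue points had an unadjusted p under 0.05, grey points neither, and black bars are list medians. *Ccnd1* (0.69) is the called point, and medians lie between -0.13 and 0.10.

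**Figure D5:**
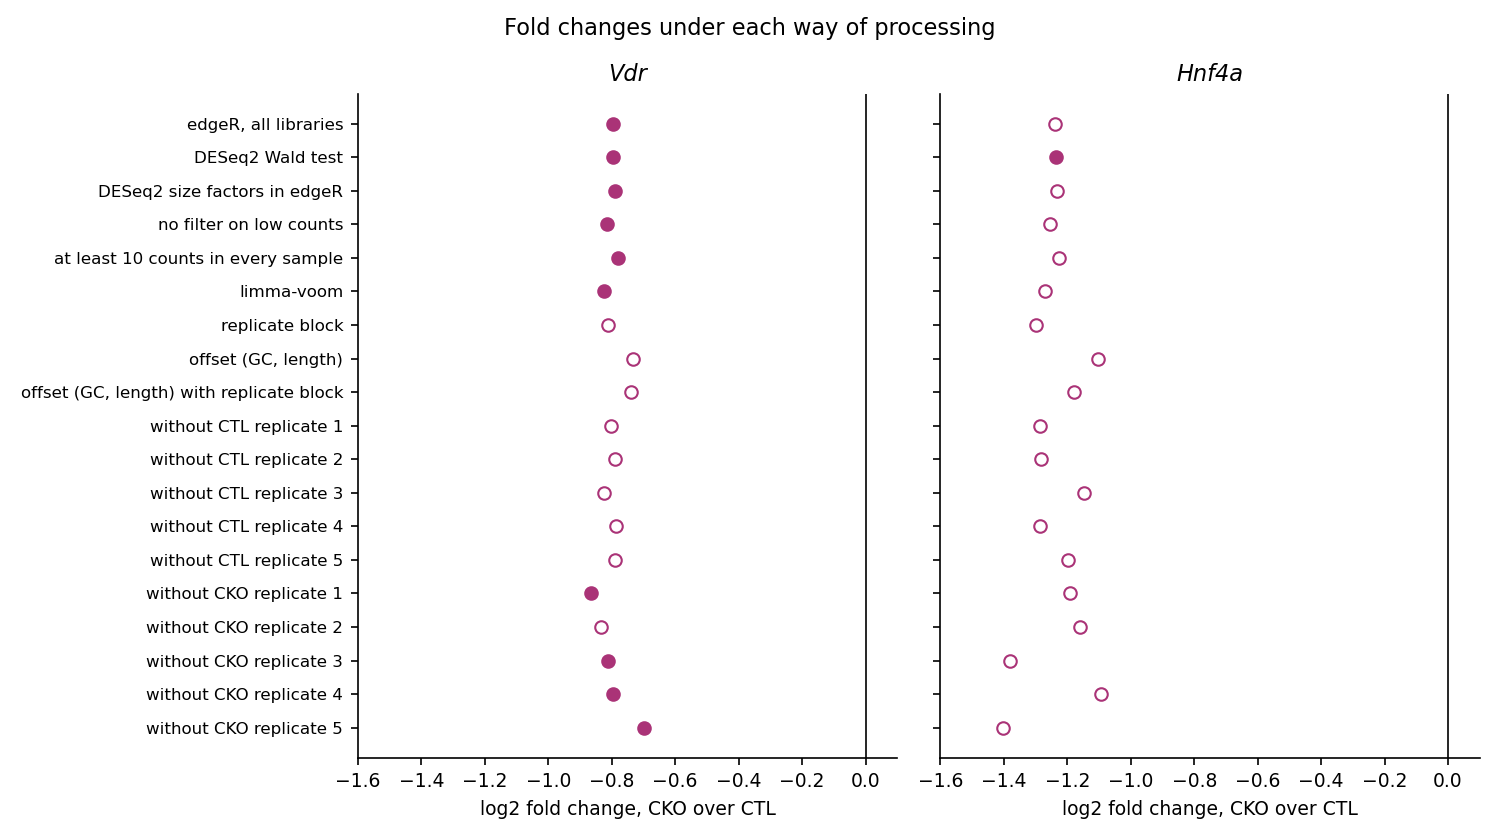
Log2 fold change of *Vdr* and *Hnf4a* under each processing alternative; filled points have an adjusted p under 0.05. All values are negative, and *Vdr* is at -0.73 after correction for the GC content and length of genes.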

How the data were processed

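RNA was measured in sorted HSCs of 5 *Cited2* CTL and 5 *Cited2* CKO mice, grouped by their labels. The labels read wildtype and *Cited2* KO, and the alleles and Cre given here are those that the authors describe. The authors aligned single-ended reads to mm10 (GRCm38) with HISAT2, counted reads per gene with Rsubread and deposited raw counts per gene symbol with gene lengths. Annotation release, strand use, multi-mapping and duplicate removal are not given in the sources used here, and counts are treated as reads, not molecules. Totals of 3058690 to 4548795 per library limit the precision of low genes. They are far below the number of sequenced reads per sample that the authors state, and the sources used here do not explain the gap.

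The tests used edgeR 4.0.16 in R 4.3.3 (filterByExpr, TMM, robust quasi-likelihood F test, Benjamini-Hochberg over all 14165 tested genes). Genes were called at an adjusted p under 0.05 and a fold change above 20%, and the standard error is the size of the log2 fold change over the square root of F. CPM used TMM library sizes, and p-values measure the spread between mice. The common biological coefficient of variation was 25.3%. Alternatives were DESeq2 1.42.0, limma-voom (limma 3.58.1), the size factors of DESeq2 in edgeR, no filter, 10 counts in every library, an offset per library for GC and length of genes (loess, span 50%), a replicate block and each library left out. Positions and overlaps came from GENCODE, promoters from RefSeq. Scripts were tested on simulated counts.

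Members and lists were chosen with earlier results of these data known. Values per library are given for receptors called, at an unadjusted p under 0.05 or without overlap, and for the receptor with the highest level per kilobase in each class. Of each list of coregulators, chaperones, metabolism and targets, genes called and otherwise up to 2 with the smallest unadjusted p under 0.05 are named, and of marker lists the genes called. *Nr1d2*, *Rarg*, *Nr1h5*, *Aldh1a1*, *Satb1* and *Flt3*, and untested markers and enzymes, were named after their values were seen. Some genes that this rule names are not reported here.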

Additional observations from a re-analysis of the deposited data

Results flagged for a closer look

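A library lay far from the other 4 of its genotype (Dixon's test, 95% level) in 5 of the 66 groups of receptor or *Cited2* values screened, where chance gives about 1 in 20. *Cited2* was at 120.1 CPM in the library labelled CKO 3 and at 3.80 to 8.30 CPM in the other *Cited2* CKO libraries. *Nr0b2* was at 15.8 CPM in the same library and at 3.53 to 5.47 CPM in the others of its genotype. *Vdr* was at 72.0 CPM in CTL 3 and at 77.9 to 80.2 CPM in the other *Cited2* CTL libraries, a small gap in a tight group, and CTL 3 still lay above every *Cited2* CKO library. *Nr1h5*, which encodes the farnesoid X receptor FXR beta, was at 7.64 CPM in CTL 3 and at 0.487 to 1.75 CPM in the others. *Nr1d1*, which encodes REV-ERB alpha and shares exon sequence with *Thra*, was at 8.31 CPM in CTL 5 and at 15.7 to 18.4 CPM in the others.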

How the results depend on the processing

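The 24 genes followed kept their sign in all 432 pairs of gene and alternative, and their side of the threshold in 393. Many were chosen by their p in these data, and only *Vdr*, *Ccnd1* and *Cd48* were called with all libraries. The others mostly kept their side by staying uncalled. The call of *Vdr* was kept in 9 alternatives and lost in 9, that of *Ccnd1* in 4 and 14, and that of *Cd48* in 10 and 8. The size of the log2 fold changes was also unstable. With the offset for GC and length of genes it was smaller by over 1.5 times in 11 of the 23 genes other than *Cited2*, and larger by as much in 0. DESeq2 called 148 genes higher and 193 lower, 2 receptors lower (*Vdr* and *Hnf4a*), and put 5 receptors at an unadjusted p under 0.05. Without the filter on low counts 5 receptors were at an unadjusted p under 0.05, and with limma-voom 8. The offset for GC and length of genes left 5 genes higher and 3 lower and no receptor called, and with the replicate block as well 9 higher, 3 lower, no receptor called and 7 receptors at an unadjusted p under 0.05. The cause was not tested. Leaving out 1 library gave 5 (without CKO 2) to 27 (without CKO 3) genes called higher and 3 (without CTL 2) to 18 (without CKO 4) lower. Among receptors these fits gave 0 called higher, 0 to 1 lower, 2 to 6 at an unadjusted p under 0.05 and 2 to 3 without overlap. For the alternatives in this paragraph, the share of all tested genes at an unadjusted p under 0.05 or without overlap is not given. Their receptor counts at that p or without overlap therefore have no background to be read against.

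The labels do not say whether libraries of the same number belong together. Deviations of same-numbered libraries correlated at 0.01, -0.09, 0.21, 0.00 and 0.19, and only number 5 correlated best with its own number. Correlations of this size cannot decide whether the numbers pair the libraries. With the replicate block 9 genes were called lower and 0 receptors, and the log2 fold change of *Vdr* was -0.81 (adjusted p = 0.0686).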
